A study of Mus musculus with 16 samples.

Results

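The comparison was of hippocampus from 5xFAD-Dp16 mice, which carry both a chromosome 16 duplication and Alzheimer transgenes, with hippocampus from wild-type (WT) mice. Its members are the 4 count columns labelled 5xFAD-Dp16 (libraries 1, 8, 9 and 11) and the 4 labelled WT (libraries 2, 4, 7 and 16), 8 of the 16 libraries of the series. The other 8 libraries are 4 Dp16 and 4 5xFAD, which carry 1 of the alterations each and were used to ask which genes changed with both alterations together. Polyadenylated RNA was sequenced from mice aged 9 months, 2 females and 2 males in each group. WT was labelled C57BL/6J, and the labels give no strain for the other genotypes. Dp16 is a duplication of the mouse chromosome 16 region that corresponds to much of human chromosome 21. It gives the mouse 3 copies of each gene there and models part of Down syndrome. 5xFAD mice express human APP with familial Alzheimer mutations as part of their transgenes, which Thy1 promoter sequences drive in neurons. The transgenes are therefore on in cells and amounts that differ from those of the endogenous genes, and genes of human chromosome 21 that lie on other mouse chromosomes are not triplicated. No litter, batch or breeding record was given, so a difference between cages, litters or backgrounds cannot be told apart from genotype.

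Amyloid deposits draw in microglia, the resident macrophages of the brain, which sense lipids and debris through Trem2 and switch on a set of phagocytic, lysosomal and antigen-presenting genes, while astrocytes nearby make more of the filament protein Gfap. Interferons act through surface receptors and STAT proteins to switch on antiviral genes, and 4 receptor genes of this family lie in the duplicated segment. The segment also holds App, the precursor of amyloid-beta, which links trisomy 21 to early Alzheimer disease.

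Total counts of the 8 libraries were between 16922937 and 24011935, and mitochondrial transcripts took 5.20% to 6.87% of them. Of 55385 genes in the table, 17132 had enough counts to be tested in a single model of all 16 libraries that had terms for genotype and sex. Calls were made at an adjusted p below 0.05, adjusted over all genes tested. All 15 listed markers of dentate granule cells, a hippocampal cell type, were measured, as were markers of surrounding tissues. Markers of thalamus, a neighbouring region, were high in 6 of the 16 libraries (scores of 1.02 to 1.65 on the log2 scale, with WT centred at 0) and low in the other 10 (-0.72 to -0.33). WT 4 and 5xFAD-Dp16 1 were among the 6, as were 3 of the 4 5xFAD libraries, so the single 5xFAD genotype was measured with more thalamic RNA than the groups compared here. Bulk tissue was sequenced, so fewer or more cells of a type and less or more RNA per cell cannot be told apart.

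Many more genes were higher than lower with the combined genotype. Of the genes tested, 548 were called (3.20%), 531 of them higher in 5xFAD-Dp16 than in WT (3.10%) and 17 lower (0.0992%), and the median log2 fold change of all genes was -0.01. Without the count filter 747 were higher and 195 lower, so the share of higher calls was 79.3% in place of 96.9%. Among the 531 higher genes, 54 lay in the duplicated segment and 477 elsewhere. The 4 libraries of 1 group did not overlap those of the other in 539 of the 548 called genes, beside 1438 of all 17132 tested, and calls favour such genes by construction. Against the same WT libraries, Dp16 alone gave 39 calls (0.228%), of which 38 were higher, and 5xFAD alone gave 1244 (7.26%), of which 909 were higher and 335 lower. These comparisons share their WT libraries, and their counts are set side by side without a test. The count of lower genes rested on single libraries: it was 9, 7, 9 or 10 when WT 2, 4, 7 or 16 was left out and 10 without 5xFAD-Dp16 11.

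The labels were checked first on the altered genes themselves. Thy1, the gene whose promoter sequences drive the transgenes, was 792, 742, 698 and 766 CPM (counts relative to the scaled library total) in WT 2, 4, 7 and 16 and 2416, 2420, 2679 and 2585 CPM in 5xFAD-Dp16 1, 8, 9 and 11. Every 5xFAD-Dp16 library was above every WT library, with a log2 fold change of 1.75 ± 0.16 (SE). App was 2032, 2030, 2006 and 1948 CPM in WT and 2974, 3049, 2970 and 2791 CPM in 5xFAD-Dp16. It rose by 0.56 ± 0.08 (adjusted p = 0.00033), while its log2 fold change was 0.67 in Dp16 alone and -0.20 in 5xFAD alone. Whether reads of the human APP transgene were counted to mouse App is not given in the sources used here, so the App level in both 5xFAD groups may hold some of them. Thy1 was the 1 gene called of 18 in the list of amyloid precursor processing. Segment genes are left out of that list, so App is not among the 18.

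**Figure D1:**
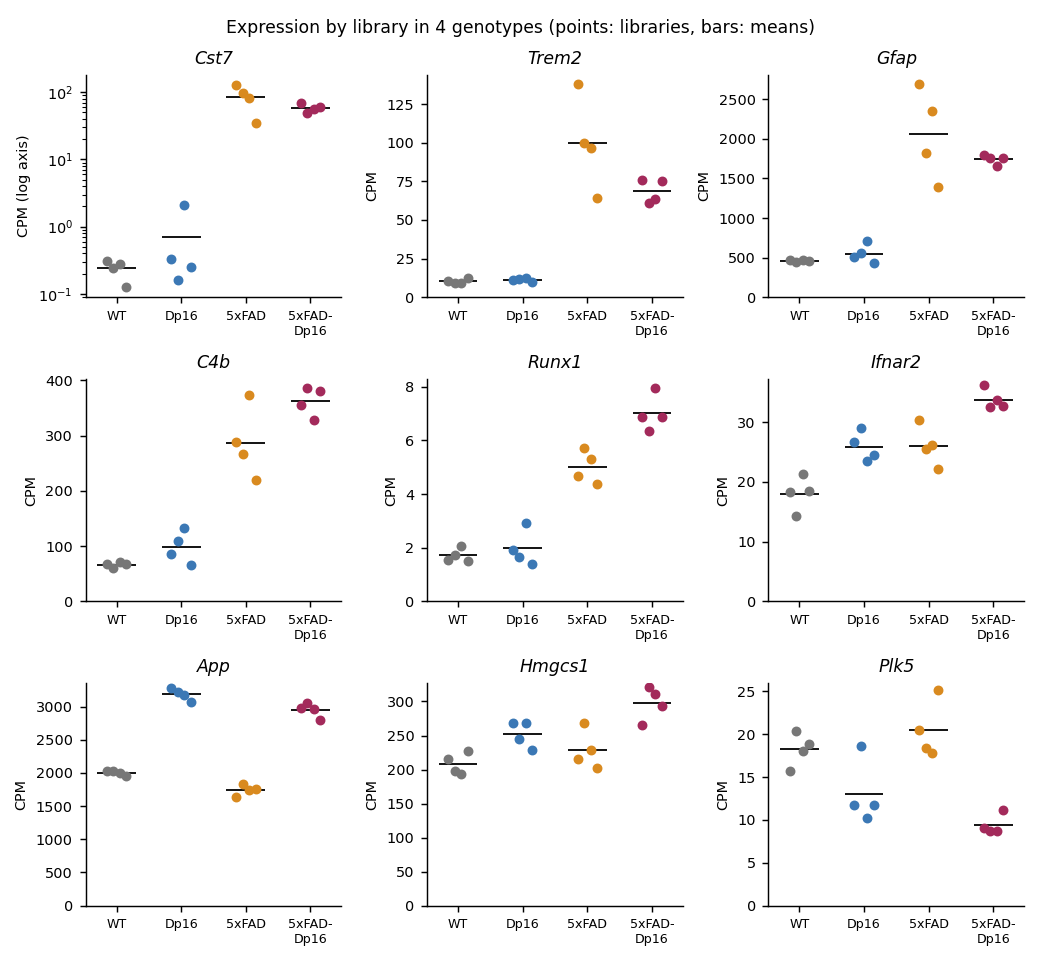
CPM of 9 genes by genotype, with 1 point per library and a bar at each group's mean (Cst7 on a log axis, the others from 0). The 4 5xFAD-Dp16 points lie above the 4 WT points in 8 of the panels, and below them for Plk5, with 8.69 to 11.2 CPM against 15.7 to 20.4.

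Genes of plaque-associated microglia showed the largest rises. Of 34 measured, 24 rose and none fell, all 34 fold changes were positive, and their median was 1.72 on the log2 scale, beside -0.01 for all genes. Cst7, an inhibitor of lysosomal cathepsins, had 0.308, 0.240, 0.282 and 0.126 CPM in WT and 68.2, 49.0, 56.3 and 59.6 CPM in 5xFAD-Dp16. Its log2 fold change was 7.95 ± 0.59 (adjusted p = 3.2e-06). Itgax, an integrin of activated microglia, rose by 5.43 and Clec7a, a receptor for beta-glucans, by 5.36. The lipid-sensing receptor Trem2 had 10.5, 9.03, 9.18 and 12.2 CPM in WT and 76.1, 60.8, 63.8 and 75.4 CPM in 5xFAD-Dp16, a log2 fold change of 2.74 ± 0.16. The lowest 5xFAD-Dp16 library was far above the highest WT library. Others with large rises outside the segment were Ccl3, a chemokine (4.15), Ifi204, a nuclear sensor of DNA (3.57), Ly9, a surface receptor of immune cells (3.46), Cybb, the catalytic subunit of the phagocyte oxidase (3.22), and St14, a membrane serine protease (3.06). Within the list, Lag3 rose by 2.06 and Cd52 by 2.65. Apoe, the lipid carrier, had a log2 fold change of 0.41 and was not called (adjusted p = 0.088), while in 5xFAD alone it was 0.84 (adjusted p = 0.0003). In 5xFAD-Dp16, DESeq2 called Apoe (0.41, adjusted p = 0.00998). So did edgeR with the thalamus score as a covariate (0.41, adjusted p = 0.0397).

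Genes that microglia express at rest were called in part. In the homeostatic list 8 of 17 genes rose, with a median of 0.64. Csf1r, the receptor for the growth factor that microglia need to live, was 115, 93.1, 115 and 108 CPM in WT and 233, 207, 217 and 216 CPM in 5xFAD-Dp16, a log2 fold change of 1.02 ± 0.11. The 5xFAD-Dp16 libraries lay close together and apart from WT. Siglech, a sialic acid receptor, rose by 1.23 and the fractalkine receptor Cx3cr1 by 0.93. Of 21 genes of microglial receptor signalling 20 rose (median 1.51), among them Fcer1g, the shared chain of Fc receptors (1.92), the transcription factor Irf8 (1.83) and the integrin chain Itgb2 (1.81).

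Genes of complement, cytokine and lysosomal pathways were called in part. In the complement list 6 of 18 rose (median 0.53, or 0.80 without WT 7), with C1qa, a chain of the initiating complex, at 60.7, 54.9, 68.2 and 66.1 CPM in WT and 249, 205, 231 and 265 CPM in 5xFAD-Dp16. C4b, the component cleaved next in the cascade, was 68.4, 60, 71.2 and 68.0 CPM in WT and 355, 387, 328 and 381 CPM in 5xFAD-Dp16, a rise of 2.44 ± 0.15. Its log2 fold change was 2.08 in 5xFAD and 0.53 in Dp16, where it was not called (adjusted p = 0.37). Of 24 Toll-like receptor and cytokine genes 10 rose (median 1.45), including Tlr2 (2.23), its co-receptor Cd14 (2.06) and the cytokine Tgfb1 (1.27). The lysosome list had 20 of 42 genes higher and a median of 0.30. Its proteases Ctss and Ctsz rose by 1.87 and 1.57, and the membrane protein Laptm5 by 1.62. Of 20 genes of lipid transport 4 rose: Npc2, which moves cholesterol out of lysosomes (0.69), Lcat (0.70), Lpcat2, and Ch25h, which makes 25-hydroxycholesterol (2.39). Ch25h lost its call when WT 2, 4 or 7 or 5xFAD-Dp16 1 or 8 was left out (adjusted p up to 0.0931).

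Interferon-stimulated genes rose nearly as a whole. Of 55 measured outside the segment, 46 rose, none fell, all 55 fold changes were positive, and the median was 1.20. The median of the same genes was 1.23 in 5xFAD, with 50 called, and 0.14 in Dp16. Nlrc5, an activator of class I antigen genes, was 0.617, 0.576, 0.518 and 0.462 CPM in WT and 3.23, 2.84, 2.94 and 3.25 CPM in 5xFAD-Dp16, a rise of 2.49 ± 0.22. Irgm1, a GTPase that acts against intracellular pathogens, was 7.09, 8.31, 8.76 and 6.97 CPM in WT and 18.5, 19.6, 17.2 and 18.1 CPM in 5xFAD-Dp16, a rise of 1.24. No 5xFAD-Dp16 library reached down to a WT library for either gene. Lgals3bp, a secreted glycoprotein, rose by 1.79 and Parp14, an ADP-ribosyltransferase, by 1.31. With the high-thalamus libraries left out, the median of the 55 was 1.12, and Lgals3bp was not called (log2 fold change 1.77). With the thalamus score as a covariate, edgeR called 47 of the 55, Lgals3bp among them (1.79, adjusted p = 3.9e-05).

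The promoters of 3 of these genes show the interferon-stimulated response element, the sequence that STAT and IRF factors bind, and are printed because the members of this list moved together. Each is the 250 bases before the RefSeq start in GRCm38.p6, read 5′ to 3′ on the gene's strand, with matches to GAAANNGAA on either strand in capitals. Irgm1 is at chr11:48871421-48871670 (minus strand), Isg15, a ubiquitin-like protein, at chr4:156200819-156201068 (minus strand) and Ifit3 at chr19:34583279-34583528 (plus strand). The matches of Irgm1 overlap each other, as do those of Isg15.
Irgm1: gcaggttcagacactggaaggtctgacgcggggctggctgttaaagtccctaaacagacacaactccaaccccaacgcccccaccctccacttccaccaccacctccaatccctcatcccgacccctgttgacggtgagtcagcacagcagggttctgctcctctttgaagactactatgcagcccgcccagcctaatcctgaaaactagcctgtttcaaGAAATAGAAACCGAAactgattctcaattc
Isg15: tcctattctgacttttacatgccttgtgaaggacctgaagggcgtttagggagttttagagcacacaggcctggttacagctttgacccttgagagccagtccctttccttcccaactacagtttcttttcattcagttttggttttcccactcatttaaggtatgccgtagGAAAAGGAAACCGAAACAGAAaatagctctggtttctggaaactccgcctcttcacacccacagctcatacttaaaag
Ifit3: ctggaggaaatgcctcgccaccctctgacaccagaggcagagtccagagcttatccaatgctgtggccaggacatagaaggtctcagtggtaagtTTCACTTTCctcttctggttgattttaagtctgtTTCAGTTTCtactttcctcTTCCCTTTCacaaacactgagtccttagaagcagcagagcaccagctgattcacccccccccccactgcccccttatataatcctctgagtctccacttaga
Isg15 rose by 1.20 (adjusted p = 0.0491) and Ifit3 by 1.64, both shown for their matches rather than by the rule for named genes. Of the 55 interferon genes 42 had a promoter in the RefSeq table, and 22 of these (52.4%) held the letters. Among all 27025 genes with a promoter the share was 8.18%. A match describes the letters only.

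Antigen-presentation genes followed in part. In the class I list 12 of 15 rose (median 1.25), among them B2m, the invariant light chain, at 118, 103, 123 and 102 CPM in WT and 395, 301, 303 and 366 CPM in 5xFAD-Dp16 (1.61 ± 0.09). H2-D1, a heavy chain, rose by 1.78, and the immunoproteasome subunit Psmb8 by 1.48. In the class II list 4 of 10 rose with a median of 0.99, while 8 were called in 5xFAD. That count was between 2 and 8 when single libraries were left out and was lowest without WT 2, and the median was 1.77 without WT 7.

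Part of the reactive astrocyte list was called. Of 32 reactive genes 16 rose (median 0.95), and of 17 general astrocyte markers none rose and Cbs fell (median 0.08). Gfap was 466, 451, 472 and 458 CPM in WT and 1798, 1756, 1658 and 1757 CPM in 5xFAD-Dp16, so its log2 fold change was 1.92 ± 0.14 with little spread inside either group. Serpina3n, a secreted protease inhibitor, was 44.4, 38.2, 53.2 and 42.5 CPM in WT and 150, 173, 159 and 159 CPM in 5xFAD-Dp16 (1.87). Of 41 orthologs of Alzheimer risk genes 13 rose (median 0.16), including the progranulin gene Grn (0.97) and Inpp5d, a phosphatase of microglia (1.25).

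**Figure D2:**
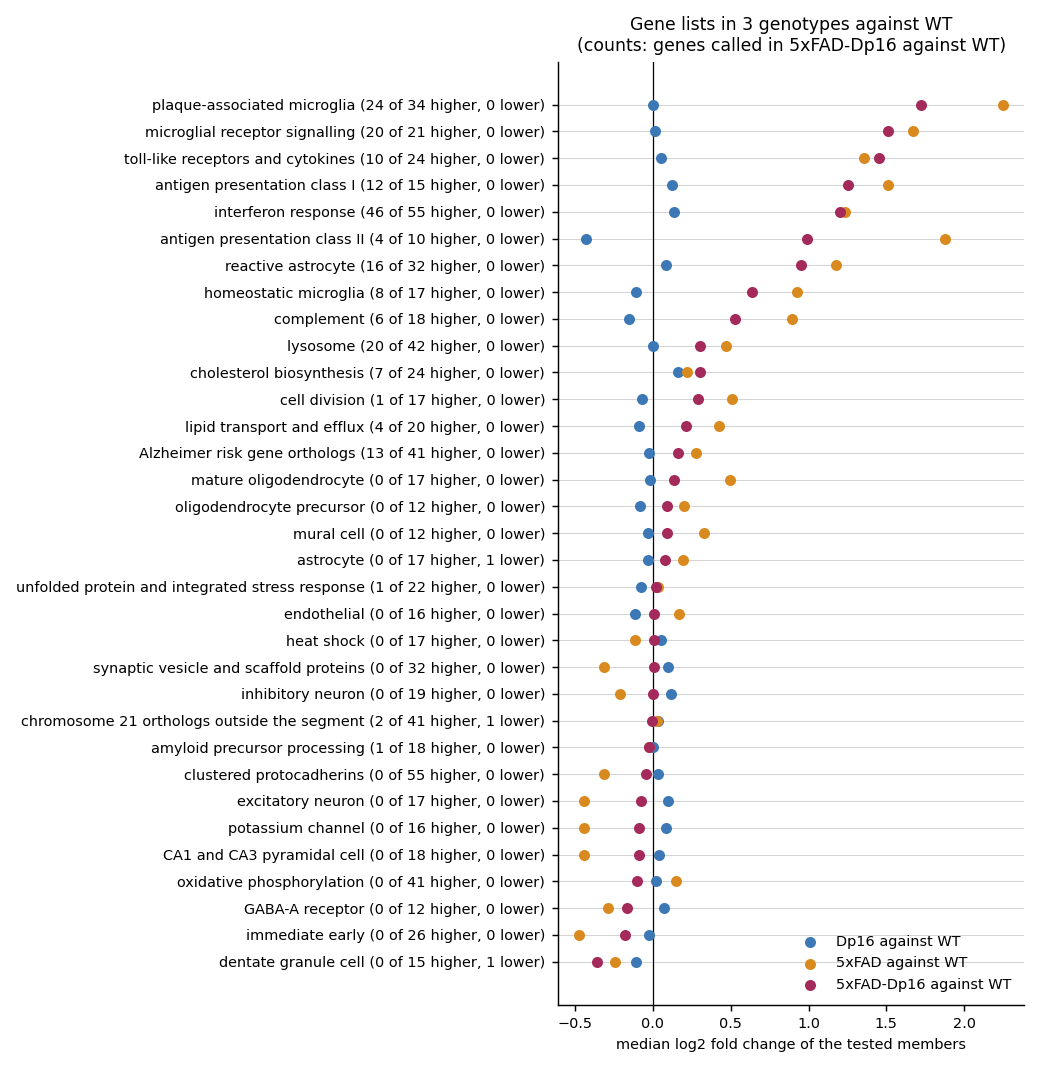
Median log2 fold change of each gene list against WT in Dp16, 5xFAD and 5xFAD-Dp16, 1 point per genotype, with the counts called in 5xFAD-Dp16 beside each name (lists of surrounding tissues and the receptor list are left out). For plaque-associated microglia the points stand at 1.72 in 5xFAD-Dp16, 2.25 in 5xFAD and 0.00 in Dp16.

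The triplicated segment, chr16:75540514-97962622 in GRCm38 from Lipi to Zbtb21, rose by close to 1.5-fold. Of its 105 tested genes 54 rose (51.4%) and none fell, 100 fold changes were positive, and the median fold was 1.47, with quartiles of 0.43 and 0.68 on the log2 scale. The 95% interval held a 1.5-fold change in 92 cases, while 7 genes had theirs wholly above that size and 6 wholly below. Elsewhere on chromosome 16, the 412 tested genes centred on a log2 fold change of -0.01. In Dp16 alone the segment's median was 0.56 with 36 genes called, and in 5xFAD alone it was 0.08. Against 5xFAD, 52 genes were called over the whole table (0.304%), 32 of them higher and in the segment, and against Dp16, 518 were called (3.02%).

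**Figure D3:**
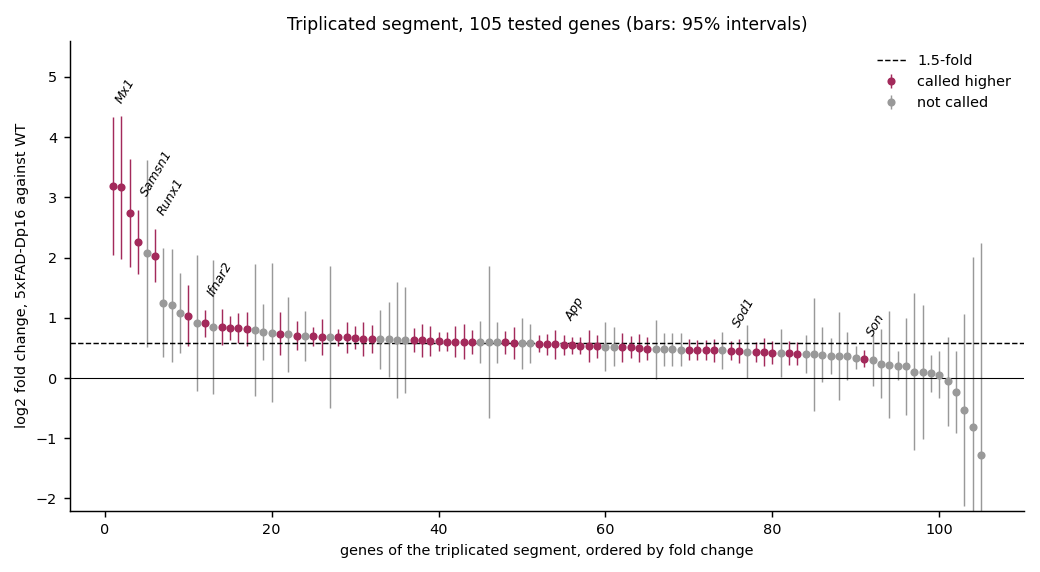
Log2 fold change of the segment's tested genes in 5xFAD-Dp16 against WT, ordered by fold change, with 95% intervals as bars, called genes in colour and a dashed line at a 1.5-fold change. The intervals of 92 of the 105 genes cross the line, and Mx1 (3.19), Samsn1 (2.26) and Runx1 (2.03) lie far above it.

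Genes studied as candidates in Down syndrome were among the called members. Rcan1, an inhibitor of the phosphatase calcineurin, was 44.1, 47.2, 49.0 and 44.8 CPM in WT and 65.3, 72.8, 79.0 and 81.8 CPM in 5xFAD-Dp16 (log2 fold change 0.69). Dyrk1a, a protein kinase, was 109, 102, 97.6 and 106 CPM in WT and 132, 151, 153 and 136 CPM in 5xFAD-Dp16 (0.46 ± 0.07). The groups did not overlap for either gene. The adhesion protein Jam2 rose by 0.83, the nucleosome-binding Hmgn1 by 0.57, the superoxide dismutase Sod1 by 0.46 and Olig2, a transcription factor of oligodendrocytes, by 0.43 (adjusted p = 0.039). The call of Olig2 was lost when any of the 8 libraries other than WT 4 and 5xFAD-Dp16 9 was left out (adjusted p up to 0.181), and without Dp16 3 or 5xFAD 6 of the joint model. Its neighbour Olig1 had 0.34 and was not called (adjusted p = 0.054). DESeq2 called Olig1 (adjusted p = 0.0091), as did edgeR with the thalamus score as a covariate (adjusted p = 0.011).

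The 4 receptor genes of the segment all rose. Ifnar1, a chain of the type I interferon receptor, was 35.9, 37.5, 36.2 and 39.2 CPM in WT and 61.0, 55.8, 63.8 and 57.0 CPM in 5xFAD-Dp16 (0.68). Its partner chain Ifnar2 was 18.3, 14.3, 21.2 and 18.4 CPM in WT and 36.1, 32.5, 33.6 and 32.6 CPM in 5xFAD-Dp16 (0.91). Ifngr2, of the type II receptor, was 63.9, 61.1, 69.2 and 66.1 CPM in WT and 98.3, 108, 109 and 91.9 CPM in 5xFAD-Dp16 (0.65). No library of the groups overlapped for these 3 genes. Il10rb, a chain of the interleukin 10 receptor, rose by 0.74 (adjusted p = 0.019). Its adjusted p was 0.0739 without WT 2, 0.0813 without 5xFAD-Dp16 1 and 0.0591 without 5xFAD-Dp16 8. Without the high-thalamus libraries it was not called (log2 fold change 0.63). With the thalamus score as a covariate it was, by edgeR (0.74, adjusted p = 0.0064). The list's median was 0.71 with both alterations, 0.56 in Dp16 and 0.26 in 5xFAD.

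Some segment genes rose by far more than 1.5-fold, and 2 of the 6 of smallest p, Samsn1 and Runx1, were also called in 5xFAD alone. Samsn1, an adaptor protein of immune cells, was 1.11, 1.25, 1.13 and 1.68 CPM in WT and 6.77, 6.66, 5.79 and 5.86 CPM in 5xFAD-Dp16, with a log2 fold change of 2.26, beside 2.21 in 5xFAD and -0.11 in Dp16. Runx1, a transcription factor of blood-lineage cells, was 1.54, 1.73, 2.07 and 1.51 CPM in WT and 6.86, 6.35, 7.96 and 6.87 CPM in 5xFAD-Dp16. Its log2 fold change was 2.03, beside 1.54 in 5xFAD and 0.20 in Dp16, and against 5xFAD it was not called (adjusted p = 0.20). The interferon-induced Mx1 and Mx2, which were singled out after their values were seen, rose by 3.19 and 3.17, beside 2.75 and 2.30 in 5xFAD and 0.72 and 1.23 in Dp16.

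Outside the segment, 3 genes were called in Dp16 and also in 5xFAD-Dp16. Slc5a5, the sodium-iodide symporter, was 27.0, 25.6, 27.7 and 25.7 CPM in WT and 40.6, 36.2, 39.1 and 35.6 CPM in 5xFAD-Dp16 (0.52). Cbs, which condenses homocysteine with serine, was 32.9, 32.6, 29.4 and 27.7 CPM in WT and 17.7, 19.8, 19.0 and 18.2 CPM in 5xFAD-Dp16, a log2 fold change of -0.71 beside -0.77 in Dp16. The gene a, which encodes the agouti pigment signal, had 1 count over the 4 WT libraries and 179 over the 4 5xFAD-Dp16 libraries. The ratio of its CPM was 167, with a 95% counting interval of 29.6 to 6633, which covers counting error only. Of 41 tested orthologs of human chromosome 21 genes outside the segment, 2 rose, Itgb2 and the leucine-rich repeat gene Lrrc3 (0.89), and Cbs fell.

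Neuronal lists held almost no called gene. None of 17 excitatory neuron genes, 18 genes of CA1 and CA3 pyramidal cells, 19 inhibitory neuron genes, 32 synaptic proteins, 16 potassium channels, 12 GABA-A receptor subunits or 26 immediate early genes was called. Their median log2 fold changes were -0.08, -0.09, 0.00, 0.01, -0.09, -0.17 and -0.17. In 5xFAD alone the medians of the excitatory, pyramidal, synaptic, potassium channel and immediate early lists were -0.44, -0.44, -0.31, -0.44 and -0.47, in a group with 3 high-thalamus libraries of 4. The part of thalamic content in that gap was not tested. The dentate granule cell list shared a sign. All 15 fold changes were negative, with a median of -0.36, and 1 was called, Plk5. The median was -0.21 without 5xFAD-Dp16 1. Scores of this list were between -0.21 and 0.13 in WT and between -0.76 and -0.31 in 5xFAD-Dp16, so the libraries of the groups did not overlap. Its median was -0.25 in 5xFAD and -0.11 in Dp16.

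Other cell types and housekeeping pathways gave few calls. No gene was called among 17 mature oligodendrocyte, 12 oligodendrocyte precursor, 16 endothelial, 12 mural, 14 meningeal, 14 choroid plexus, 10 ependymal, 15 thalamus, 12 striatum, 6 blood, 17 heat shock, 41 oxidative phosphorylation or 55 clustered protocadherin genes. Of the 41 oxidative phosphorylation genes 1 had a positive fold change, beside 8100 of all 17132, and their median was -0.10. Their scores overlapped between the groups, at -0.10 to 0.10 in WT and -0.14 to -0.05 in 5xFAD-Dp16. The median of thalamus genes was 0.10, and it was -0.56 without 5xFAD-Dp16 1 and 0.51 without WT 4. Choroid plexus genes had a median of -1.70, but their scores ran from -2.19 to 1.68 in WT and from -3.75 to 0.30 in 5xFAD-Dp16, so the libraries overlapped. The choroid median was -1.07 without WT 7 and -3.81 without 5xFAD-Dp16 8. Edem1, of the unfolded protein response, rose by 0.49 (1 of 22 in its list) and Top2a, of cell division, by 1.47 (1 of 17). Top2a lost its call when any of the 8 libraries other than WT 16 and 5xFAD-Dp16 11 was left out (adjusted p up to 0.122). Without the high-thalamus libraries it was not called (log2 fold change 1.41). With the thalamus score as a covariate it was, by edgeR (1.46, adjusted p = 0.026). Cd3e, which encodes a T cell receptor chain partner, had 3 counts over the WT libraries and 73 over the 5xFAD-Dp16 libraries (ratio 22.7, 95% counting interval 7.47 to 113), and was the 1 gene called of 10 for lymphocytes and neutrophils.

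Of the 17 lower genes, the largest falls, predicted genes and genes of mean log2 CPM below 0 left out, were Plk5, a brain-expressed member of the polo-like kinase family (-0.96), Kctd14 (-0.80), Cbs (-0.71), Cecr2, a chromatin reader (-0.58), Igsf3, a membrane immunoglobulin (-0.53), Pik3r3, a regulatory subunit of PI3 kinase (-0.49), Btbd3, a factor that orients dendrites (-0.41), and Ctbp2, a corepressor (-0.33). Several of these calls rested on single libraries of the 8. Ctbp2 lost its call when any but 5xFAD-Dp16 9 was left out (adjusted p up to 0.208) or when any Dp16 library or 5xFAD 15 was dropped from the joint model, and Kctd14 when WT 7 or 16 or 5xFAD-Dp16 1, 8 or 11 was (up to 0.172). Cecr2 lost it without WT 2, 7 or 16 or 5xFAD-Dp16 11 (adjusted p up to 0.0752), Igsf3 without WT 2 or 4 or 5xFAD-Dp16 1 or 8 (up to 0.0598), and Btbd3 without WT 2 or 16 or 5xFAD-Dp16 1 or 11 (up to 0.0711). Kctd14 and Ctbp2 were also not called without the high-thalamus libraries (log2 fold changes -0.93 and -0.37). With the thalamus score as a covariate edgeR called both (adjusted p = 0.034 and 0.041). Cbs alone of these 8 was also called in a single genotype.

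The next question was which genes reached a change with both alterations. A gene was counted as called only with both when it passed the threshold in 5xFAD-Dp16 against WT and in neither Dp16 nor 5xFAD against WT. This held for 55 genes (0.321%), 42 higher and 13 lower. The other 493 called genes were also called in a single genotype. Of the 55, 12 lay in the segment, all higher, and 30 higher and 13 lower lay elsewhere. This class was defined by thresholds: 45 of the 55 had an unadjusted p below 0.05 in a single genotype, by edgeR, and 10 had none. In 5xFAD it was 26 of the 55, beside 4268 of all 17132 genes tested, and in Dp16 31, beside 977. The class was chosen on contrasts that share these WT libraries, so the counts are a description. The class is also unsteady. It had 34 genes without 5xFAD-Dp16 1, 91 without 5xFAD 6 and 86 without 5xFAD 15, 8 of the 55 stayed in it in all 16 fits that left out 1 library, and 24 stayed when the high-thalamus libraries were left out.

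Medians over this class describe genes chosen on these same contrasts, and the choice shapes how they compare. Outside the segment, the 30 higher genes had a median log2 fold change of 0.59 with both alterations, 0.24 in Dp16 and 0.31 in 5xFAD, and the median of each gene's sum was 0.53. The 13 lower genes had medians of -0.58, -0.38 and -0.10, with a median sum of -0.50. Some estimates lay apart from their sum, such as Tlr12 (1.52 beside 0.66), Plk5 (-0.96 beside -0.33) and Gm37963 (0.92 beside 0.17). These genes were picked after their values were seen. By edgeR their interactions had an unadjusted p of 0.086, 0.019 and 0.029, and none was called (adjusted p = 0.718). The fold change was larger with both alterations than with either alone in 52 of the 55, which is a description, since the class was chosen on these contrasts. In direct comparisons, which the rule did not use but which share the 5xFAD-Dp16 libraries with it, 8 of the 55 differed from 5xFAD and 11 from Dp16, none differed from both, and 36 differed from neither. Over all genes tested 0.304% differed from 5xFAD and 3.02% from Dp16. The class was chosen on values of the same 5xFAD-Dp16 libraries, so its larger shares are a description. Just inside the threshold stood Gm38562 (adjusted p = 0.0484), Serpina3e-ps (adjusted p = 0.0496) and 2410018L13Rik (adjusted p = 0.0498), and just outside it Rimklb (adjusted p = 0.0512), Mrps6 (adjusted p = 0.0518) and Mfap3l (adjusted p = 0.0524).

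**Figure D4:**
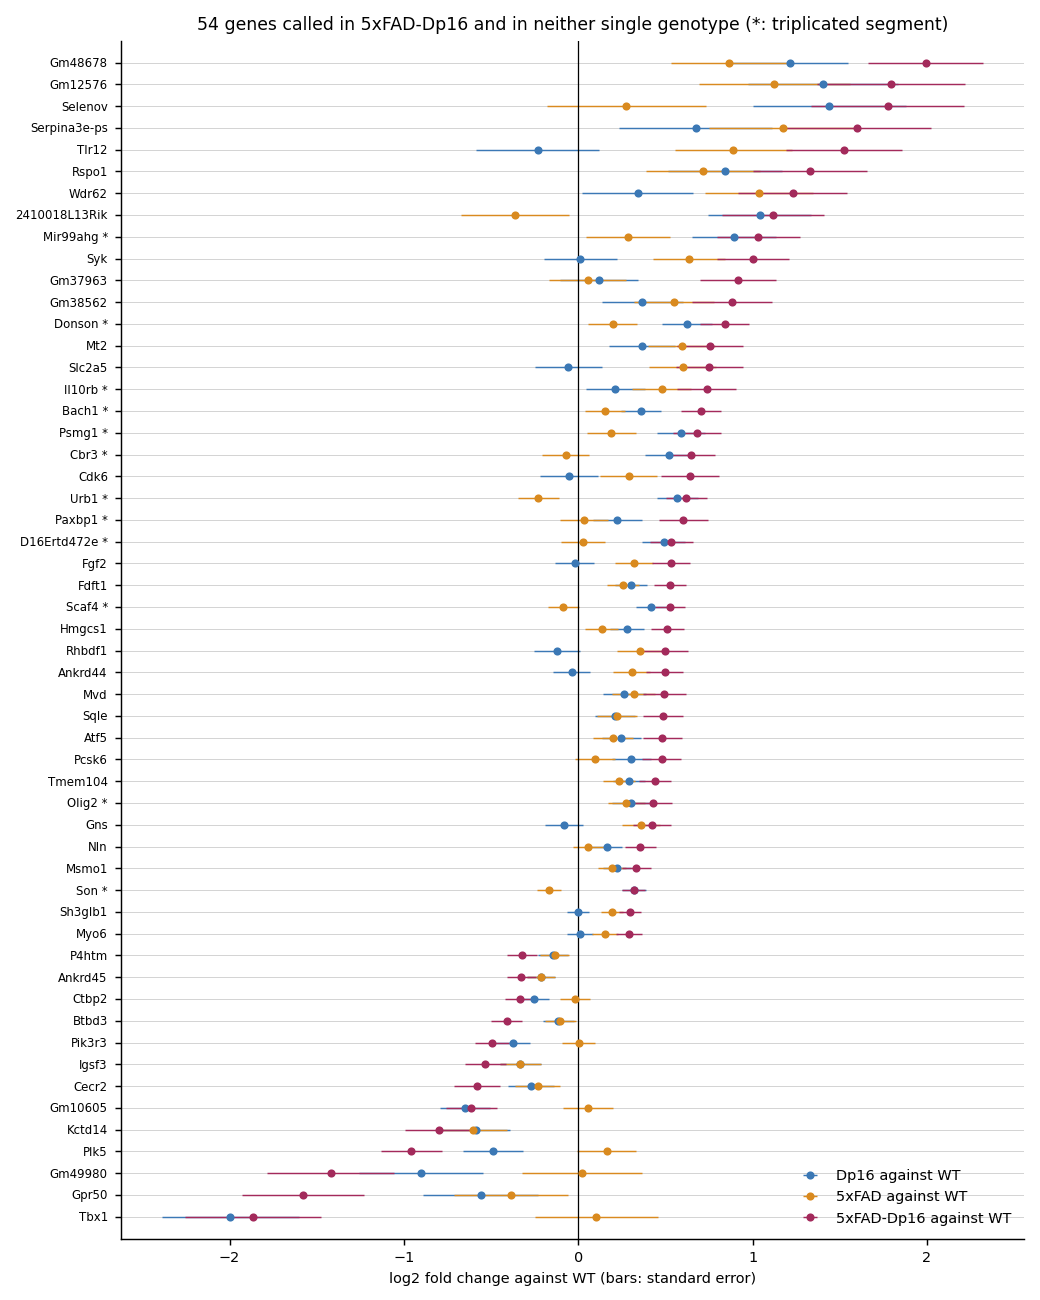
Log2 fold change against WT of 54 of the 55 genes called only with both, in Dp16, 5xFAD and 5xFAD-Dp16, with standard errors as bars and segment genes starred. The 5xFAD-Dp16 point lies farther from 0 than both single genotypes in most of these genes, as it does in 52 of the 55.

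Cholesterol synthesis gave 5 genes of this class. All 24 measured genes of the pathway had positive fold changes, with a median of 0.30, and 7 rose, whereas 3 were called in 5xFAD (median 0.22) and none in Dp16 (median 0.16). Hmgcs1, the enzyme that makes HMG-CoA, was 215, 197, 194 and 227 CPM in WT and 265, 321, 310 and 293 CPM in 5xFAD-Dp16, a log2 fold change of 0.51 (adjusted p = 0.0038). Fdft1, squalene synthase, was 89.0, 85.5, 84.3 and 96.1 CPM in WT and 123, 132, 133 and 124 CPM in 5xFAD-Dp16 (0.53, adjusted p = 0.0022). The groups did not overlap for either gene. Fdft1 had log2 fold changes of 0.30 in Dp16 and 0.26 in 5xFAD, and Hmgcs1 of 0.28 and 0.13, none of them called. The rest of the 5 were Sqle, squalene epoxidase (0.49), Mvd, of the mevalonate pathway (0.49), and Msmo1, a sterol oxidase (0.33). In the 16 fits that left out 1 library, Sqle was called in 11, Mvd in 9 and Msmo1 in 11. With the thalamus score as a covariate Fdft1 was still called but was no longer in the class. By edgeR none of the 5 differed from 5xFAD (smallest adjusted p 0.0995) or from Dp16 (smallest adjusted p 0.344). Their interactions ran from -0.09 to 0.10 on the log2 scale, and none was called. Stard4, a sterol transfer protein (0.71), and Acat2 (0.41) were also called in 5xFAD. Pathway scores were -0.05 to 0.09 in WT, 0.09 to 0.18 in Dp16, 0.14 to 0.35 in 5xFAD and 0.29 to 0.35 in 5xFAD-Dp16. The high-thalamus libraries 5xFAD 6, 13 and 15 scored 0.14, 0.15 and 0.16, and 5xFAD 10, with low thalamus markers, scored 0.35. Of the other high-thalamus libraries, WT 4 scored -0.01, 5xFAD-Dp16 1 scored 0.30, and Dp16 14 scored 0.18, the highest of its group. The part of thalamic content in the lower 5xFAD scores was not tested. The ranges of 5xFAD and 5xFAD-Dp16 overlapped. The count of 7 became 4 to 6 when any 1 of the 8 compared libraries was left out, with 4 without WT 4.

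**Figure D5:**
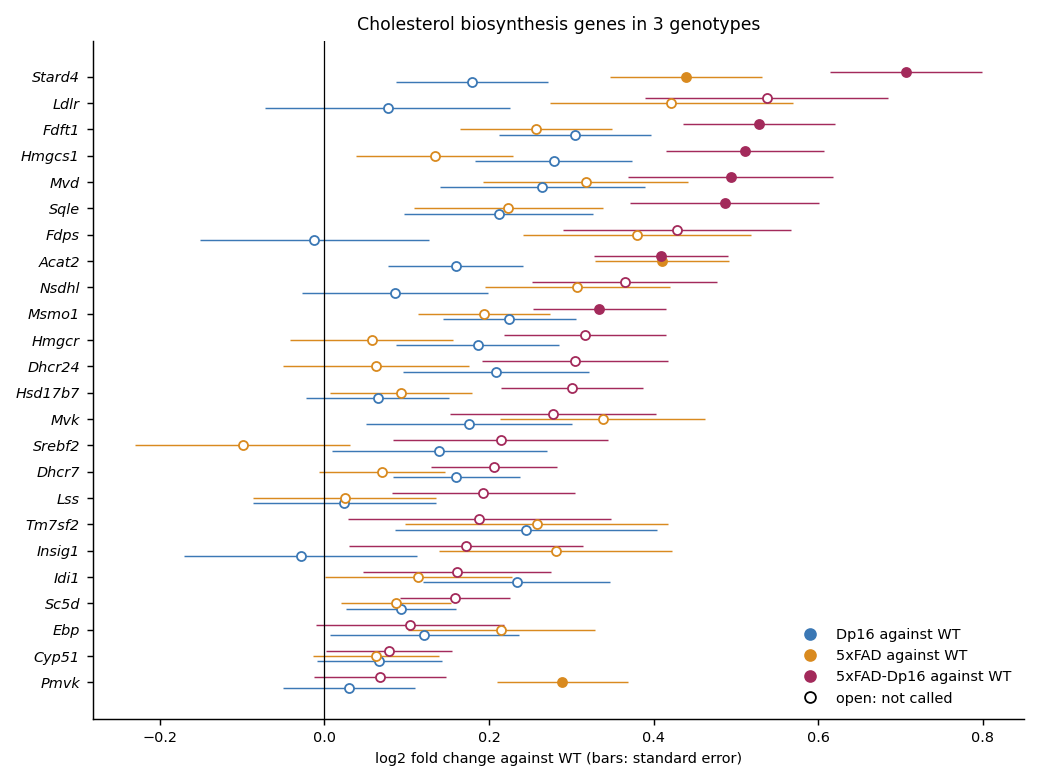
Log2 fold change against WT of the 24 measured cholesterol genes in Dp16, 5xFAD and 5xFAD-Dp16, with standard errors as bars and filled points for called genes. All 24 5xFAD-Dp16 points lie right of 0, of which 7 are filled, and no Dp16 point is filled.

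The promoter of Hmgcs1 is printed because it is the only 1 of the 17 cholesterol genes with a promoter in the RefSeq table that held the letters TCACNCCAC, a form of the sterol regulatory element, which SREBP factors bind. It is the 250 bases before the start, chr13:119690101-119690350 (plus strand, GRCm38.p6), with the match in capitals, 137 bases before the start.
Hmgcs1: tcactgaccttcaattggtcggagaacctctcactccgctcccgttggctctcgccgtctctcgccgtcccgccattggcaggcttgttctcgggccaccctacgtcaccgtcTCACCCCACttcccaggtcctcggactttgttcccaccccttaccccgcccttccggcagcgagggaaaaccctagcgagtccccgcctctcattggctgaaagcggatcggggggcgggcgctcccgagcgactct
Both strands were searched. Among all genes with a promoter 1.22% held these letters, and 1 of the 40 genes called only with both that had a promoter did. No match elsewhere says only that these letters were not in the window.

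Other higher genes of the class outside the segment, taken by smallest p, came from several functions. Syk, a kinase that relays signals of Trem2 and Fc receptors, was 5.86, 4.03, 4.94 and 4.20 CPM in WT and 9.31, 7.10, 11.5 and 9.84 CPM in 5xFAD-Dp16. Its log2 fold change was 1.00 (adjusted p = 0.0086), beside 0.64 in 5xFAD (adjusted p = 0.073) and 0.01 in Dp16, and it differed from Dp16 (adjusted p = 0.0098). Fgf2, a growth factor of astrocytes and neurons, was 9.80, 8.64, 11.6 and 9.58 CPM in WT and 12.8, 13.9, 15 and 15.3 CPM in 5xFAD-Dp16. It rose by 0.53 and also differed from Dp16 (adjusted p = 0.0074). Tlr12, a Toll-like receptor, rose by 1.52, with an adjusted p of 0.0641 without WT 2. Ankrd44, a phosphatase subunit, rose by 0.50 and Sh3glb1, of membrane curvature and autophagy, by 0.30. Both lost their call without WT 7 (adjusted p = 0.0602 and 0.0544). Without the high-thalamus libraries Tlr12, Ankrd44 and Sh3glb1 were not called (log2 fold changes 1.47, 0.53 and 0.28). With the thalamus score as a covariate edgeR called each of them (adjusted p = 0.012, 0.0092 and 0.0079). Tmem104 was 21.1, 25.1, 24.5 and 21.4 CPM in WT and 32.3, 32.3, 31.1 and 29.3 CPM in 5xFAD-Dp16 (0.44), with 0.29 in Dp16 and 0.23 in 5xFAD. Atf5, a stress-response transcription factor, rose by 0.48 and lost its call without WT 2 or 4 or 5xFAD-Dp16 9 or 11 (adjusted p up to 0.107).

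The 12 segment genes of the class had a median log2 fold change of 0.63, beside 0.45 in Dp16 and 0.09 in 5xFAD. Bach1, a repressor of the haem oxygenase gene, was 12.5, 13, 16.1 and 15 CPM in WT and 24.5, 23.3, 19.5 and 25 CPM in 5xFAD-Dp16. It rose by 0.70, with 0.36 in Dp16 and 0.16 in 5xFAD. Donson, of DNA replication, was 5.61, 5.19, 4.71 and 5.59 CPM in WT and 10.6, 9.37, 7.96 and 9.93 CPM in 5xFAD-Dp16 (0.84). Scaf4, an RNA-processing factor, rose by 0.52, Urb1, of ribosome biogenesis, by 0.62 and Psmg1, a proteasome assembly chaperone, by 0.68. In Dp16 alone the log2 fold changes of Scaf4, Urb1, Psmg1 and Donson were 0.42, 0.57, 0.59 and 0.62, none of them called. By edgeR their unadjusted p there was 0.00019, 0.00019, 0.0006 and 0.00045 (adjusted p = 0.074, 0.074, 0.19 and 0.15). With DESeq2 none of these genes was in the class. Those genes did not differ from Dp16 (adjusted p of 0.634 or more), nor did Bach1 (adjusted p = 0.166). The call of Psmg1 was lost without the high-thalamus libraries (log2 fold change 0.48) and kept with the thalamus score as a covariate. Scaf4 and Urb1 differed from 5xFAD (adjusted p = 0.0021 and 0.0018).

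Among the lower genes of the class, Plk5 was 15.7, 20.4, 18 and 18.9 CPM in WT and 9.09, 8.70, 8.69 and 11.2 CPM in 5xFAD-Dp16. Its log2 fold change was -0.96, beside -0.49 in Dp16 and 0.16 in 5xFAD, and it was lower than in 5xFAD by a log2 fold change of -1.12 (adjusted p = 0.0049). Without the high-thalamus libraries it was not called against WT (log2 fold change -0.84). With the thalamus score as a covariate it was, by edgeR (-0.96, adjusted p = 0.0025). Pik3r3 was 35.6, 36.6, 37.4 and 33.0 CPM in WT and 29.4, 23.3, 23 and 25.9 CPM in 5xFAD-Dp16 (-0.49), and it also differed from 5xFAD (adjusted p = 0.042). Btbd3 was 283, 251, 255 and 297 CPM in WT and 190, 221, 215 and 191 CPM in 5xFAD-Dp16 (-0.41), with -0.11 in Dp16 and -0.10 in 5xFAD. Each 5xFAD-Dp16 library was below each WT library for these 3 genes. Tbx1, a developmental transcription factor, had -1.87 with both alterations and -2.0 in Dp16 (adjusted p = 0.051). Gpr50, an orphan receptor, fell by 1.58 and Ankrd45 by 0.33. Gpr50 lost its call without WT 4 or 7 or 5xFAD-Dp16 9 or 11 (adjusted p up to 0.0849), and Ankrd45 without any WT library or 5xFAD-Dp16 1 or 9 (up to 0.144) or Dp16 12 or 14. Neither was called without the high-thalamus libraries, and both were with the thalamus score as a covariate.

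Whether the combined effect departed from the sum of the single effects was tested with the interaction of the genotypes over all genes. No gene was called by edgeR, where 1114 had an unadjusted p below 0.05 and the smallest adjusted p was 0.718. DESeq2 and limma also called 0. Without a count filter 290 were called, 285 of them genes of the filtered set, and without the high-thalamus libraries 15. Among the 55 genes, 2 had an unadjusted p below 0.05, Plk5 and Gm37963, and the interaction ran from -0.74 to 0.87 on the log2 scale. A missed threshold does not show that effects add up, nor that they depart from the sum. For Plk5 the interaction was -0.63 ± 0.24 (SE) and for Tlr12, the highest of the 55, 0.87 ± 0.47. Both were picked after their values were seen. The genes of smallest p over the table were Ddx49, an RNA helicase (-0.42), Prim1, of the DNA primase (-1.21), and Aldh1a7, which rested on 8 and 11 counts in 5xFAD-Dp16 and WT.

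With 2 libraries per sex and group, a difference of the combined effect between females and males was called for no gene by edgeR, with 730 at an unadjusted p below 0.05 and a smallest adjusted p of 0.978. DESeq2 and limma also called 0, and without a count filter 316 were called. The smallest p values belonged to Zbtb7c, a transcriptional repressor (1.54, females minus males), the histone demethylase Kdm7a (-0.96) and Hspa12b, of the heat shock family (1.12).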

How the data were processed

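Per the labels, TRIzol was used to isolate hippocampal RNA, a Tecan/Nugen kit made stranded libraries from its polyadenylated part, and these were sequenced on a NovaSeq as paired reads. Listed in the submitters' processing notes are the build GRCm38, HTSeq 0.6.1, HISAT2 2.1.0, SAMtools 1.5, FastQC 0.11.5 and bcl2fastq. What each tool did, whether counting used the strand and what became of multiply mapped reads are not given in the sources used here, so overlapping genes and close paralogs (class I heavy chains, interferon gene families) may share reads. The authors deposited raw counts per gene, and RPKM values that were checked to equal the counts divided by library total and gene length.

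Genes with enough counts (filterByExpr, minimum count 10) were scaled by TMM (factors 0.944 to 1.13) and tested with the quasi-likelihood test of edgeR 4.0.16 in R 4.3.3, with genotype and sex as terms over all 16 libraries and Benjamini-Hochberg adjustment. CPM values are TMM-scaled. The procedure was tested on simulated data. Alternatives used DESeq2 1.42.0, limma 3.58.1 on log2(RPKM + 0.1), other scaling, filters and terms, and fits that left out libraries. Positions came from GENCODE M21, which placed 17123 of the 17132 genes tested, and promoters from RefSeq. In all, 41 gene lists of 933 entries were used, with segment genes taken out of all but the receptor list. Named genes were the 8 largest rises and falls, up to 4 called members of smallest p per list (or 1 where none was called), fixed genes of the segment and transgenes, the leading genes called only with both, and the 3 of smallest p where a test called none. A few genes that the rule names are not reported here. The members, lists and rule were chosen with earlier results of these data known. The design text counts 4 mice per group. No label says how the tissue was divided, and p-values measure the spread between these libraries.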

Additional observations from a re-analysis of the deposited data

Results flagged for a closer look

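In 8 of 244 sets of 4 libraries examined, 1 library stood apart from the other three by a gap above the Dixon limit for 4 samples, as a share of the range. Chance marks about 1 in 20 such sets. Among genes called only with both, 5xFAD-Dp16 11 was the highest of its group for Plk5 (11.2 CPM, next 9.09 CPM, a gap of 0.84 of the range) and the lowest for Cecr2 (6.23 CPM, next 8.0 CPM, 0.854). Sh3glb1 was highest in WT 2 (94.6 CPM, next 82.3 CPM, 0.876). In the segment, Sod1 was lowest in WT 2 (195 CPM, next 220.0 CPM, 0.873). The class I gene H2-K1 was highest in WT 7 (46.4 CPM, next 32.2 CPM, 0.909), and Iyd, from the pyramidal cell list, was highest in WT 16 (4.03 CPM, next 2.79 CPM, 0.865). Otx2, a choroid plexus marker, was highest in 5xFAD-Dp16 8 (13.4 CPM, next 2.75 CPM, 0.84). The gene a had its only WT count in WT 4 (0.048 CPM against 0 in the others, a gap of 1).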

How the results depend on the processing

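Of the called genes named by the rule, none changed direction under the alternatives run, nor did the segment's median. The count of 531 higher genes stayed within 1.5 times under each. The 17 lower genes became 37 with DESeq2, 195 without a count filter, 41 without the 6 high-thalamus libraries and 35 with the thalamus score as a covariate. The 55 genes called only with both became 97, 134, 249 and 93 under the same settings, and 10 when genes with an unadjusted p below 0.05 in a single genotype were dropped. The interaction gave 290 calls without a count filter and 15 without the high-thalamus libraries, and the sex difference 316 without a count filter, of which 285 of the 290 and 314 of the 316 lay on genes that the filter keeps. The cause was not tested. With the high-thalamus libraries left out, 5xFAD is 1 library, assumed to vary like the other groups. Leaving out each library in turn gave 426 to 566 higher genes, 7 to 23 lower, 34 to 91 called only with both, 0 in the interaction, 0 to 1 for the sex difference (1 without 5xFAD-Dp16 9), and a segment median of 0.53 to 0.57. Over those fits, calls of named genes were lost in 84 cases, gained in 7 and the same in 1909, and list medians moved by more than the spread between replicates in 32 cases and not in 624. No paired analysis was possible because the numbers in the titles differ for every library, and the sample numbers in the source labels follow the title order within each group and join mice of different sex.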
